A study of Mus musculus with 55 samples.

Results

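The platelet-derived growth factor (PDGF) genes of the mouse were followed across sorted liver cells: the ligands Pdgfa, Pdgfb, Pdgfc and Pdgfd and the receptors Pdgfra and Pdgfrb. These 6 genes were taken by symbol from 24478 symbols in a table of FPKM (a fragment count scaled to transcript length and to library size, so that levels of different genes can be compared), with the row of highest mean kept for each symbol. Pdgfra and Pdgfrb each had 2 rows, which differed by at most 1.04 times in any library with at least 1 FPKM. The table gives the 6 rows as the RefSeq transcripts NM_008808 (Pdgfa), NM_011057 (Pdgfb), NM_019971 (Pdgfc), NM_027924 (Pdgfd), NM_011058 (Pdgfra) and NM_008809 (Pdgfrb). In the coordinates of the table, for which the submitters' processing notes name the build mm9, Pdgfa lies on chromosome 5 at 139452928 to 139470907 on the minus strand and Pdgfra on the same chromosome at 75548315 to 75594229 on the plus strand. Pdgfb lies on chromosome 15 at 79826305 to 79845238 on the minus strand, Pdgfc on chromosome 3 at 80840337 to 81017953 and Pdgfd on chromosome 9 at 6168611 to 6377519, the last 2 on the plus strand. Each value therefore summarises exonic sequence of a whole transcript.

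RNA sequencing covered 10 populations sorted by FACS from livers of mice labelled C57B/L6, in 27 libraries from normal liver and 28 after partial hepatectomy (PH, surgical removal of part of the liver, after which the remainder regrows). The labels give no time after surgery, no animal age and no sort markers. Clonal biliary epithelial cells (cBEC), biliary epithelial cells (BEC) and hepatocytes (HC) had 4 normal libraries each, liver sinusoidal endothelial cells (LSEC) had 3, and the other populations had 2 each: non progenitor ducts (NPD), endothelial cells (EC), Kupffer cells (KC, the resident macrophages), blood cells, Thy1 cells and hepatic stellate cells (HSC). The PH groups held 5 libraries of LSEC and 4 of HC, 3 for HSC, KC and EC alike, and 2 for Thy1, blood, NPD, BEC and cBEC. Nothing in the labels says that libraries of a group came from separate animals, so p-values measure the spread between these samples, which may be technical.

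Lists of 6 to 10 marker genes were set beside the labels, each summarised as the mean log2(FPKM + 1) of its genes. The stellate list, which holds neither PDGF receptor, scored 9.17 in normal HSC and 8.93 in PH HSC and at most 3.77 in any other population. Some sorts carried markers of other cells: the mesothelial list scored above the duct list in NPD (9.47 against 6.43 in normal liver, 9.13 against 6.78 after PH), and in normal Thy1 cells the mesothelial list scored 8.09 beside 7.80 for portal fibroblasts. In PH Thy1 cells the endothelial list was highest of these at 8.16. PH blood had a Kupffer score of 10.27 and a leukocyte score of 4.73, where normal blood had 6.23 and 8.96. Library 1 of PH cBEC, which is titled PH and tagged normal in the labels, correlated more with library 1 of PH BEC (r = 0.988) than with the other PH cBEC library (r = 0.971), and library 2 of PH Thy1 more with library 1 of PH EC (0.974) than with its own partner (0.969). Library 1 of normal HSC correlated more with library 1 of PH HSC (0.930) than with the other normal HSC library (0.894), library 1 of normal LSEC more with library 1 of normal EC (0.973) than with its own group (at most 0.969), and library 2 of normal cBEC more with library 4 of normal BEC (0.976) than with its own group (at most 0.970). These are correlations of log2(FPKM + 1) across genes. No 2 libraries held identical values, and the read depth is unknown. The sum of FPKM per library ran from 960918 to 1203198 in HC and from 624726 to 848630 in the other populations. The part of this difference in the levels of HC was not tested.

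PDGF ligands are secreted dimers, and their receptors are tyrosine kinases that dimerise on binding. The alpha receptor, made from Pdgfra, binds the products of Pdgfa, Pdgfb and Pdgfc, and the beta receptor, made from Pdgfrb, binds those of Pdgfb and Pdgfd. The products of Pdgfc and Pdgfd are secreted in a latent form that proteases such as the plasminogen activators cleave. In the liver PDGF is best known as a mitogen and chemoattractant for stellate cells, the vitamin A-storing pericytes of the sinusoid, and Pdgfrb is a textbook marker of pericytes.

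**Figure D1:**
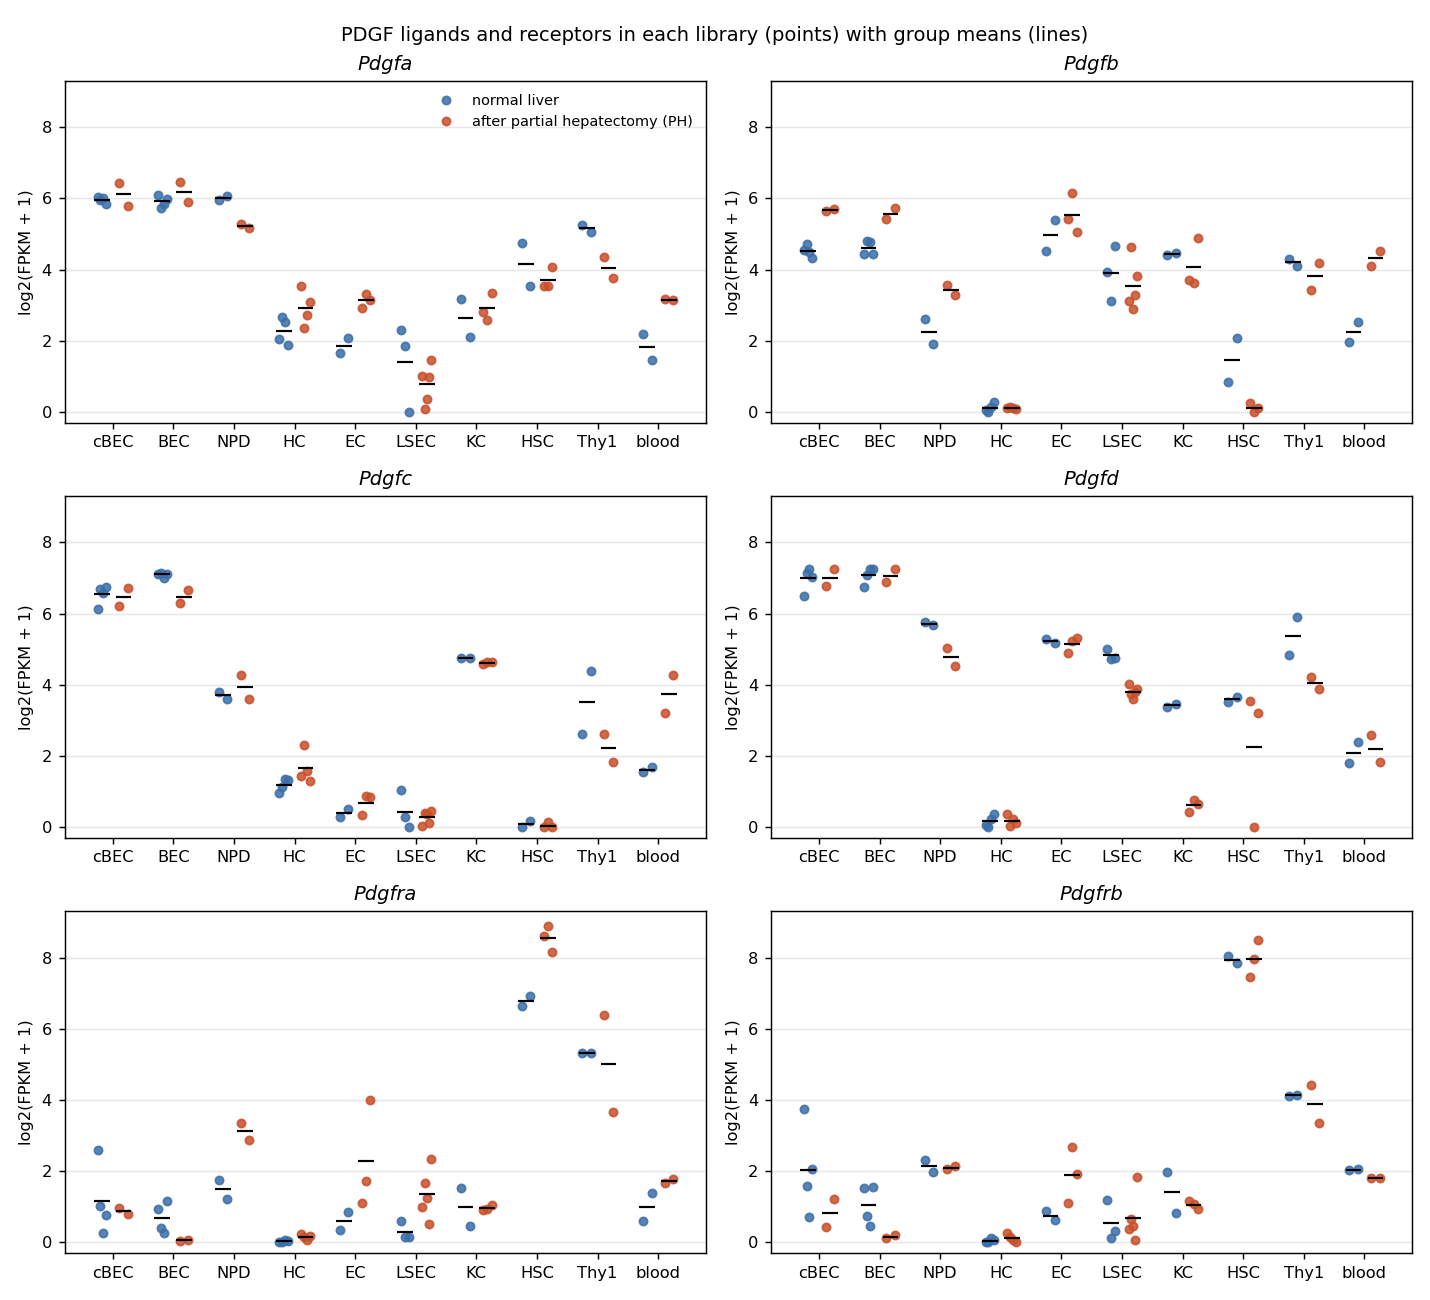
Level of each PDGF gene in each of the 55 libraries, as log2(FPKM + 1), by sorted population. Blue points are normal livers, orange points livers after PH, and black lines are group means. The receptors stand highest in HSC, where every library lies above 90 FPKM for both, while Pdgfc and Pdgfd stand highest in cBEC and BEC, Pdgfc is near 0 in HSC and Pdgfd near 0 in HC.

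Both receptors had their highest level in stellate cells and their next highest in Thy1 cells, in normal liver and after PH. Pdgfrb read 261 and 228 FPKM in the 2 normal HSC libraries and 173, 247 and 359 in the 3 PH libraries. In Thy1 cells it read 16.4 and 16.6 FPKM in normal liver and 20.3 and 9.20 after PH. The HSC libraries all lay above the Thy1 libraries, and the Thy1 libraries above nearly every other one. The exception was library 1 of normal cBEC at 12.5 FPKM, above the lower PH Thy1 library, where the other 3 normal cBEC libraries read 2.02, 0.62 and 3.19. That cBEC library also had the highest sums of portal fibroblast (253 FPKM against 65.5 to 92.8 in the other 3) and smooth muscle markers (392 against 28.7 to 214) of its group, and the part of these cells in its Pdgfrb was not tested.

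Pdgfra read 99.4 and 121 FPKM in the normal HSC libraries and 388, 472 and 283 in the PH libraries, so that all 3 PH libraries lay above both normal ones. The mean was 3.46 times the normal mean. In Thy1 cells Pdgfra was 39.1 and 39.3 FPKM in normal liver and 82.9 and 11.6 after PH, the 2 PH libraries falling on either side of the normal pair. The lower of these was the library closest to PH EC, with a portal fibroblast marker sum of 573 FPKM against 1585 in its partner and an endothelial sum of 3416 against 1750. Their part in the value was not tested.

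The other populations held little of either receptor. Outside HSC and Thy1, Pdgfra was highest in library 3 of PH EC at 15.0 FPKM, beside 1.14 and 2.31 in the other 2 libraries of that group, and in PH NPD at 9.23 and 6.33. In hepatocytes neither receptor passed 0.20 FPKM in any of 8 libraries. Pdgfrb reached at most 5.38 FPKM outside HSC, Thy1 and normal cBEC, in library 2 of PH EC. Below Thy1 the order of populations was hardly separated: in normal liver the libraries of Pdgfra overlapped between each population and the next from NPD (1.86 ± 0.74 FPKM, SD, n = 2) through cBEC, KC, blood, BEC and EC down to LSEC (0.24 ± 0.23, n = 3). For Pdgfrb the order ran from cBEC (4.57 ± 5.36, n = 4) through NPD, blood, KC, BEC, EC and LSEC to HC, and each neighbouring pair overlapped except blood and KC. In PH EC portal fibroblast markers summed to 488, 637 and 283 FPKM and mesothelial markers to 660, 167 and 277 in libraries 1 to 3, and their part in the Pdgfra values was not tested.

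The contrast of HSC with Thy1 cells was tested in normal liver with limma in a fit of all 20 groups. It called 33.5% of 16527 genes and 4 of the 6 PDGF genes, at a Benjamini-Hochberg adjusted p under 0.05 over all genes tested, the threshold used throughout. Pdgfrb was higher in HSC by 3.81 ± 0.56 (SE) on the log2(FPKM + 1) scale (adjusted p = 6.46e-07). Pdgfra, with a difference of 1.46 ± 0.64, did not pass (adjusted p = 0.0777), although the libraries did not overlap. It passed when only the 4 libraries of these 2 groups were fitted (adjusted p = 0.0478) and after quantile normalization (0.0226). After PH, where 32.2% of genes were called, both receptors were higher in HSC, Pdgfra by 3.52 ± 0.59 (adjusted p = 5.73e-06) and Pdgfrb by 4.08 ± 0.51 (2.18e-08).

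Within a library the receptors changed places between these populations. In normal HSC Pdgfra stood at 0.381 and 0.530 times Pdgfrb, and in PH HSC at 2.24, 1.91 and 0.788 times. Every PH ratio lay above both normal ratios, and library 3 of PH HSC, with the highest Pdgfrb, was the one of the 3 below equal levels. In Thy1 cells Pdgfra exceeded Pdgfrb in all 4 libraries, at 2.39 and 2.37 times in normal liver and 4.08 and 1.26 times after PH. No test was run on the ratios.

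**Figure D2:**
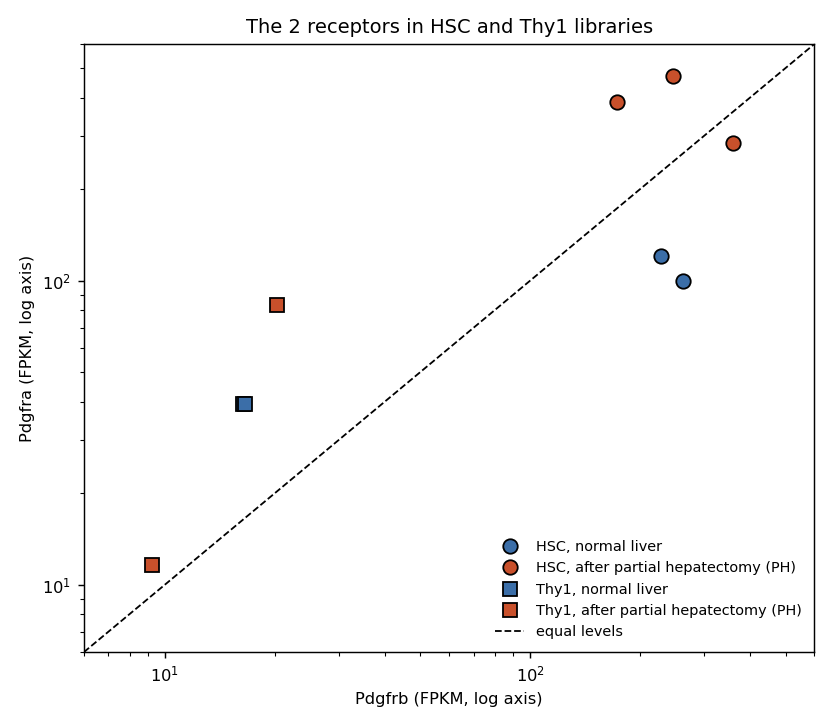
Pdgfra against Pdgfrb in FPKM, both on log axes, in each HSC library (circles) and Thy1 library (squares), with normal liver in blue and PH in orange. The dashed line marks equal levels. Both normal HSC libraries lie below the line, 2 of the 3 PH HSC libraries lie above it, and the 4 Thy1 libraries lie above it at far lower Pdgfrb.

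The response of HSC to PH was fitted in the 5 HSC libraries alone, where limma called 1 of 11729 genes (0.00853%) and 0 of the 4 PDGF genes tested. An unadjusted p under 0.05 was found for 995 of the 11729 genes and for 1 of these 4. That was Pdgfra, with a difference of 1.76 ± 0.30 on the log2 scale (unadjusted p = 0.000476, adjusted p = 0.222). Leaving out any 1 library gave differences of 1.59 to 1.95 and adjusted p of 0.300 to 0.475. In the fit of all 20 groups, which shares the spread of every population and called 11.9% of genes for this contrast, the same difference passed (adjusted p = 0.0430). Pdgfrb differed by 0.03 ± 0.35 (adjusted p = 0.989), with a sign that turned under some settings. The sum of the stellate markers ran from 10740 to 12490 FPKM in normal HSC and from 10198 to 12214 after PH. Portal fibroblast markers summed to 28.8 to 49.1 FPKM and 18.4 to 31.7, mesothelial markers to at most 3.54, and smooth muscle markers, which include Acta2, to 356 to 615 and 540 to 1615. Levels in a bulk sort cannot tell more RNA per cell from a larger share of the cells that carry it.

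Of the ligands, HSC held Pdgfa and Pdgfd at middling levels and little Pdgfb or Pdgfc. Pdgfb read 0.79 and 3.20 FPKM in normal HSC, and 0.18, 0.08 and listed at 0 in the PH libraries, so the groups did not overlap. It was too low to be tested in the HSC fit and fell by 1.34 ± 0.40 on the log2 scale in the fit of all groups (adjusted p = 0.0218). It did not pass in the HSC libraries alone, either without the filter (-1.34, adjusted p = 0.680) or without library 1 of normal HSC (-1.95, 0.334). Endothelial markers were lower too, going from sums of 112 to 474 FPKM to 54.99 to 76.9, as did sinusoidal markers, from 227 to 1273 to 63.4 to 114, and Kupffer markers summed to 76.0 and 965 FPKM in normal HSC and to 48.1, 0.51 and 50.2 after PH. Library 2 of normal HSC was the highest of the 5 in all 3 lists and in Pdgfb, and the part of these cells in the Pdgfb value was not tested. Pdgfa, the ligand of the alpha receptor, read 25.7 and 10.7 FPKM in normal HSC and 10.5, 10.6 and 15.8 after PH. Pdgfd read 10.5 and 11.5 FPKM, then 10.6, 8.21 and listed at 0. Pdgfc was at most 0.14 FPKM in the 5 HSC libraries. For Pdgfa and Pdgfd the treatments overlapped.

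Against Thy1 cells of normal liver, HSC held less of 3 ligands: Pdgfc by -3.42 ± 0.37 (adjusted p = 7.07e-10), Pdgfb by -2.74 ± 0.44 (2.71e-06) and Pdgfd by -1.79 ± 0.51 (0.00558). Pdgfc and Pdgfd were not called from the 4 libraries alone (adjusted p = 0.0546 and 0.0783), nor Pdgfd without library 2 of normal Thy1 (0.155), while Pdgfa passed without library 1 of normal HSC (-1.60, 0.0296). The same 3 genes were lower in HSC than in Thy1 cells after PH, where Pdgfd rested on the PH HSC library listed at 0, since without it the difference of -0.68 had an adjusted p of 0.0560 (0.342 when only these 2 groups were fitted). Against LSEC, the endothelium that stellate cells wrap, HSC of normal liver differed in 5 of 6 genes (30.8% of all genes were called). Pdgfra was higher by 6.50 ± 0.59 (adjusted p = 6.62e-12), Pdgfrb by 7.40 ± 0.51 (4.08e-15) and Pdgfa by 2.76 ± 0.43 (1.96e-06), while Pdgfb at -2.44 ± 0.40 (4.36e-06) and Pdgfd at -1.25 ± 0.47 (0.0390) were lower. The Pdgfd call was lost with any 1 of the 5 libraries left out (adjusted p of 0.0584 to 0.163), and Pdgfa missed when only these libraries were fitted (0.0518). After PH the same 5 were called in the same directions, among 34.9% of genes, Pdgfd again only with the library of PH HSC listed at 0 (0.152 without it).

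The ligands are given in order of level, as means in FPKM ± SD. In normal liver Pdgfa was highest in NPD (63.3 ± 3.54, n = 2), cBEC (61.7 ± 3.59, n = 4) and BEC (59.7 ± 6.405, n = 4), whose libraries overlapped, then in Thy1 cells (34.8 ± 3.03, n = 2) and HSC (18.2 ± 10.6, n = 2). From KC (5.71 ± 3.37, n = 2) through HC, EC and blood to LSEC (2.20 ± 2.02, n = 3) neighbours overlapped. After PH the order began with BEC (72.8 ± 20.3, n = 2) and cBEC (70.3 ± 22.4, n = 2), with NPD (36.4 ± 1.65, n = 2) now apart from both, and ended with LSEC (0.82 ± 0.68, n = 5). Its 3 leading populations in normal liver are those labelled as biliary or duct cells.

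Pdgfb is the ligand that both receptors bind. In normal liver EC (31.6 ± 13.3, n = 2), BEC (23.8 ± 3.58, n = 4), cBEC (22.0 ± 2.59, n = 4) and KC (20.5 ± 0.54, n = 2) overlapped one with the next, as did Thy1 (17.4 ± 1.94, n = 2) and LSEC (15.4 ± 8.46, n = 3) below them. NPD (3.90 ± 1.64, n = 2), blood (3.83 ± 1.31, n = 2) and HSC (1.999 ± 1.70, n = 2) formed a low group and HC (0.09 ± 0.09, n = 4) stood last. After PH cBEC (50.1 ± 0.78, n = 2), EC (47.9 ± 19.4, n = 3) and BEC (47.0 ± 7.05, n = 2) overlapped at the top, and HSC (0.09 ± 0.09, n = 3) and HC (0.07 ± 0.02, n = 4) at the bottom.

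Pdgfc and Pdgfd, the latent ligands, were both highest in the biliary sorts. Pdgfc in normal liver went from BEC (136 ± 5.82, n = 4) and cBEC (93.4 ± 16.4, n = 4), which did not overlap, to KC (25.9 ± 0.33, n = 2), Thy1 (12.6 ± 10.5, n = 2), NPD (12.02 ± 1.37, n = 2) and blood (2.06 ± 0.20, n = 2), and the other 4 populations averaged under that of blood. After PH cBEC (89.5 ± 22.3, n = 2) and BEC (88.7 ± 16.0, n = 2) overlapped, followed by KC (23.6 ± 0.68, n = 3). Pdgfd in normal liver ran from BEC and cBEC which overlapped, to NPD (51.7 ± 1.55, n = 2), Thy1 (43.4 ± 22.3, n = 2) and EC (36.9 ± 2.15, n = 2), of which Thy1 overlapped both others, and on to LSEC (27.6 ± 3.21, n = 3), HSC (11.02 ± 0.68, n = 2), KC (9.71 ± 0.54, n = 2), blood (3.35 ± 1.28, n = 2) and HC (0.13 ± 0.13, n = 4), each apart from the next. After PH its order from the biliary sorts down was EC (34.6 ± 5.23, n = 3), NPD (26.8 ± 6.94, n = 2), Thy1 (15.6 ± 2.67, n = 2), LSEC (13.1 ± 1.49, n = 5), HSC (6.26 ± 5.54, n = 3), blood (3.77 ± 1.69, n = 2), KC (0.54 ± 0.18, n = 3) and HC (0.14 ± 0.11, n = 4).

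The biliary sorts were the populations with most ligand transcript, led by Pdgfc and Pdgfd. Pdgfd, the ligand of the beta receptor, had a mean of 136 ± 20.9 FPKM (SD, n = 4) in normal BEC and 128 ± 27.2 (n = 4) in normal cBEC, and 134 ± 23.4 (n = 2) and 130 ± 30.1 (n = 2) after PH. The 2 sorts overlapped, and every library of both lay above every library of the other populations. Pdgfc, which signals through the alpha receptor, read 138, 141, 128 and 138 FPKM in normal BEC and 69.6, 103, 95.5 and 106 in normal cBEC, so that the 2 sorts did not overlap. After PH they did, at 77.4 and 100 FPKM in BEC and 73.8 and 105 in cBEC. In BEC that was below all 4 normal libraries, a difference of -0.62 ± 0.18 that did not pass (adjusted p = 0.134). Pdgfa read 52.6 to 67.4 FPKM in the 8 normal libraries of cBEC and BEC and 54.5 to 87.2 in the 4 PH libraries.

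Promoter sequences from RefSeq (build GRCm38.p6, not the build of the expression table) were matched by symbol for 4 of the 6 genes: Pdgfa, Pdgfc, Pdgfd and Pdgfra. Those of Pdgfc and Pdgfd, both highest in the biliary sorts, and of Pdgfra, highest in HSC, are shown as the 250 bases before the start, 5′ to 3′ on the gene's strand, with matches to the motif TATAAA in capitals. They span chr3:81036166-81036415, chr9:6168236-6168485 and chr5:75152001-75152250, all on the plus strand.
Pdgfc: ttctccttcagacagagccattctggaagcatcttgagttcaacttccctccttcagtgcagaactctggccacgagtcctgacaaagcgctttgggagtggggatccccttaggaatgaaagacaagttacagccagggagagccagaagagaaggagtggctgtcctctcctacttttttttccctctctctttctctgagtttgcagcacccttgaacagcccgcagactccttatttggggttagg
Pdgfd: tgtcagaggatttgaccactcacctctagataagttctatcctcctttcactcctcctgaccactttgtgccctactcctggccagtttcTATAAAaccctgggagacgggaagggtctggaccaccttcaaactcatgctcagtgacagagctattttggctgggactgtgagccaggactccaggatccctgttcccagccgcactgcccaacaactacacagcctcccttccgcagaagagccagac
Pdgfra: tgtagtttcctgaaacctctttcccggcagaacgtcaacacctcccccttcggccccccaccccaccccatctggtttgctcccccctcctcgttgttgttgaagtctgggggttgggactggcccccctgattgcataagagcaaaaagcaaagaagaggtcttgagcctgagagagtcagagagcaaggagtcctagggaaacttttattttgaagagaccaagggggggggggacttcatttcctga
Searched on both strands, TATAAA occurred only in the Pdgfd window, at position -160 from the start, and in 12.4% of 32851 promoter windows of the same length. The motif GGGCGG occurred 2 times in the Pdgfa window (32.7% of windows hold it) and in none of the other 3, and CCAAT in none of the 4 (33.8%). The Pdgfa window held 28 CG pairs, more than 92.4% of windows, against 3 in Pdgfc, 3 in Pdgfd and 4 in Pdgfra, where the median window held 6. Pdgfa had 2 starts among the promoter sequences, and its window is that of the upstream start only. A match is a string of letters and no evidence of binding.

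Pdgfb was the ligand whose PH libraries stood apart from normal liver in both biliary sorts. It read 20.7, 27.1, 26.7 and 20.6 FPKM in normal BEC and 42.0 and 52.0 after PH. In cBEC it read 22.2, 25.3, 21.6 and 19.0 FPKM in normal liver and 49.6 and 50.7 after PH. In both sorts each PH library lay above each normal library, and the means were 1.98 and 2.28 times the normal means. The rise of 0.96 ± 0.19 in BEC was called (adjusted p = 0.0469), 1 of 5 PDGF genes tested, beside 1.81% of all genes. It was no longer called in the fit of all groups, which called 2.11% of genes for BEC (adjusted p = 0.275). Nor was it called by limma without library 1 or 4 of normal BEC (adjusted p = 0.122 and 0.105). These 2 fits called 134 of 12750 and 170 of 12688 genes. Without library 1 or 2 of PH BEC, which leaves a group of 1, the difference was 1.11 and 0.81. In cBEC limma called 0 of 6 PDGF genes and 0.0681% of all genes. An unadjusted p under 0.05 was found for 1346 of all 13225 genes and for 1 of the 6. That gene was Pdgfb, with a larger difference of 1.16 ± 0.17 (adjusted p = 0.101), which passed only without library 1 of normal cBEC (adjusted p = 0.0330) among the 6 libraries left out in turn. The fit of all groups called 0 of 6 in cBEC as well, beside 3.12% of all genes. Markers of endothelium were lower after PH in BEC (58.0 to 178 FPKM in normal liver and 16.4 to 17.3 after PH) and in cBEC (29.7 to 193 and 15.1 to 20.9), and platelet and megakaryocyte markers summed to at most 11.2 FPKM in any of these 12 libraries. The part of such cells in the Pdgfb values was not tested.

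NPD held less of 3 ligands than cBEC. In normal liver cBEC were above NPD in Pdgfc by 2.84 ± 0.32 (adjusted p = 1.85e-09), in Pdgfb by 2.26 ± 0.38 (6.02e-06) and in Pdgfd by 1.27 ± 0.45 (0.0251), 3 of 6 PDGF genes beside 32% of all genes. The Pdgfd call was lost without library 2 or 3 of normal cBEC or either normal NPD library (adjusted p of 0.0505 to 0.123). The libraries overlapped for Pdgfa, 61.7 ± 3.59 FPKM (n = 4) against 63.3 ± 3.54 (n = 2), with a difference of -0.04 ± 0.41. After PH 4 of 6 were called beside 26.8% of all genes. Pdgfb, Pdgfc and Pdgfd were again higher in cBEC, and Pdgfra, at -2.24 ± 0.64 (adjusted p = 0.00674, and 0.0712 without library 1 of PH NPD), was lower. With a pseudocount of 0.1 the Pdgfd difference was not called (adjusted p = 0.0871).

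Within NPD the PH comparison called 3 of 6 PDGF genes, where 15.2% of all genes were called. Pdgfa read 60.8 and 65.8 FPKM in normal NPD and 37.6 and 35.2 after PH (-0.78 ± 0.15, adjusted p = 0.0327). Pdgfd read 52.8 and 50.6 FPKM and then 31.7 and 21.9 (-0.95 ± 0.22, adjusted p = 0.0463). Pdgfra went the other way, from 2.38 and 1.33 FPKM to 9.23 and 6.33 (1.62 ± 0.32, adjusted p = 0.0339). The groups overlapped in none of the 3. Pdgfb, from 5.06 and 2.74 FPKM to 10.8 and 8.67, was separated as well and did not pass (1.17 ± 0.31, adjusted p = 0.0634). None of the 3 calls held in the fit of all groups, which called 11.7% of genes for NPD and 0 of the 6. Leaving out any NPD library leaves a group of 1. Without library 1 or 2 of PH NPD the differences were -0.83 and -0.74 for Pdgfa and -1.20 and -0.69 for Pdgfd. For Pdgfra they were 1.38 and 1.87. Without library 1 or 2 of normal NPD the difference of Pdgfd was -0.92 and -0.98. Summed mesothelial markers were 5930 to 6374 FPKM in normal NPD and 4122 to 4654 after PH, duct markers 2626 to 3826 and 3978 to 4757, and stellate markers 386 to 422 and 190 to 199. Their part in the changes was not tested.

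Endothelial cells were the population with the most Pdgfb in normal liver, and they carried Pdgfd but almost no Pdgfc. In EC Pdgfb read 22.2 and 41.0 FPKM in normal liver and 42.3, 69.5 and 32.0 after PH, overlapping between treatments and, in normal liver, with BEC, the next population. In LSEC it read 14.2, 7.63 and 24.4 FPKM and then 7.75, 23.8, 6.44, 8.77 and 13.1. Pdgfc stayed at or below 1.05 FPKM in all 13 endothelial libraries. In normal liver EC and LSEC differed in 0 of 6 PDGF genes, with 1 (Pdgfb) at an unadjusted p under 0.05. Limma called 1.47% of all 16527 genes, and 1291 had an unadjusted p under 0.05. Fitting the 2 groups alone also called 0.

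After PH the 2 endothelial sorts differed in 3 ligands, beside 8.36% of all genes. Pdgfa was higher in EC by 2.35 ± 0.35 (adjusted p = 2.82e-06), Pdgfb by 1.99 ± 0.32 (1.43e-05) and Pdgfd by 1.33 ± 0.38 (0.0160), the last lost without library 2 or 3 of PH EC (0.0678 and 0.0835). Pdgfrb, at 1.23 ± 0.41 (0.0561), passed without library 1 of PH EC (0.0194) or library 5 of PH LSEC (0.0111). Pdgfa read 2.13 and 3.24 FPKM in normal EC and 6.59, 8.97 and 7.92 after PH, all 3 PH libraries above both normal ones. In LSEC it read 3.98 and 2.62 FPKM and listed at 0 in normal liver, and 1.001, 0.05, 0.28, 0.99 and 1.77 after PH. In EC alone limma called 0 of 5 PDGF genes tested and 0.0249% of all genes. Of the 5, 1 (Pdgfa, 1.27 ± 0.27, adjusted p = 0.215) had an unadjusted p under 0.05, as had 1297 of all 12064 genes. The fit of all groups called 0 for EC as well, beside 1.24% of all genes. The difference between the responses of EC and LSEC was 1.88 ± 0.55 for Pdgfa (unadjusted p = 0.00157, adjusted p = 0.173), where 0.345% of genes were called. It passed without library 3 of normal LSEC, which is listed at 0 (adjusted p = 0.00385).

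Pdgfd fell in LSEC after PH. It read 31.3, 25.6 and 26.0 FPKM in the 3 normal libraries and 15.1, 12.4, 11.2, 12.9 and 13.8 in the 5 PH libraries, with a gap between the groups. The fall was -1.02 ± 0.15 on the log2 scale (adjusted p = 0.00470), the only call among 4 PDGF genes tested, where limma called 8.46% of all genes. It held with each library left out in turn (adjusted p of 0.00601 to 0.0318), but not in the fit of all groups (adjusted p = 0.0960), which called 7.12% of genes for LSEC. Nor did it hold with a replicate block (-1.05, 0.135), which called 3 of all 11501 genes for LSEC. Sinusoidal markers summed to 6810 to 12530 FPKM in normal LSEC and 2264 to 7437 after PH. The 2 ranges overlapped through 1 library of each group, and the part of the marker difference in the fall was not tested. In EC Pdgfd read 38.4 and 35.3 FPKM and then 28.7, 36.2 and 38.8, with overlap. Pdgfra in LSEC read 0.50, 0.11 and 0.10 FPKM in normal liver and 1.002, 2.15, 1.34, 0.43 and 4.08 after PH, overlapping at the low end (1.06 ± 0.39, adjusted p = 0.126).

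Kupffer cells held Pdgfb and Pdgfc in both treatments, and their Pdgfd fell after PH. It read 9.33 and 10.1 FPKM in normal KC and 0.35, 0.71 and 0.57 after PH. The PH mean was 0.0558 times the normal mean, and the difference of -2.80 ± 0.19 (adjusted p = 0.00139) was called in all 12 alternatives, with values of -3.98 to -2.35. It was 1 of 6 PDGF genes called, where limma called 36.8% of all genes. In the same libraries sinusoidal endothelial markers summed to 4085 and 5465 FPKM in normal liver and to 341 to 615 after PH, and endothelial markers to 1491 and 1857 and to 317 to 574. Normal LSEC themselves held 25.6 to 31.3 FPKM of Pdgfd. Whether the endothelial transcripts in normal KC account for its Pdgfd was not tested. Pdgfc stood at 26.2 and 25.7 FPKM in normal KC and 22.8, 24.2 and 23.8 after PH (-0.13 ± 0.11, adjusted p = 0.399). Pdgfb stood at 20.2 and 20.9 FPKM and then 12.1, 11.3 and 28.5. Without library 3 of PH KC, the highest of these, Pdgfb fell by 0.76 on the log2 scale (adjusted p = 0.00239).

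In blood cells 3 ligands rose after PH. Pdgfb went from 2.91 and 4.75 FPKM to 16.3 and 22.2 (2.08 ± 0.28, adjusted p = 0.00366). Pdgfc went from 1.91 and 2.20 FPKM to 8.26 and 18.2 (2.13 ± 0.39, adjusted p = 0.00852), and Pdgfa from 3.58 and 1.75 to 8.02 and 7.83 (1.33 ± 0.30, adjusted p = 0.0159). These 3 of 6 stand beside 64% of all genes called, so that being called was the more common outcome in this comparison, whose median gene shifted by -0.31. Leaving out any blood library leaves a group of 1, so such fits cannot tell whether the 3 calls hold. Without library 1 or 2 of normal blood the difference was 1.70 and 0.96 for Pdgfa and 2.06 and 2.19 for Pdgfc. For Pdgfb it was 1.79997 without library 1 of normal blood. Without library 1 or 2 of PH blood the difference of Pdgfa was 1.32 and 1.35. Kupffer markers summed to 743 and 1068 FPKM in normal blood and to 11525 and 20107 after PH, where KC themselves had 16100 to 33204, and leukocyte markers went from 6678 and 7330 to 1059 and 2259. Platelet and megakaryocyte markers, of cells that store PDGF protein, went from 9.50 and 12.8 to 133 and 245, and sinusoidal endothelial markers from 829 and 922 to 3036 and 6636. The platelet list summed to 63.8 to 96.3 FPKM in normal KC and 109 to 239 in PH KC. Its mean log2 score was 0.88 in normal and 1.95 in PH blood, and 1.26 and 1.15 in KC. In normal liver KC were above blood in Pdgfc by 3.14 ± 0.37 (adjusted p = 3.27e-09), Pdgfb by 2.18 ± 0.44 (7.77e-05) and Pdgfd by 1.33 ± 0.51 (0.0339), beside 42.7% of all genes. The Pdgfd difference missed without library 1 of normal blood or either KC library (0.0917 to 0.239). The part of Kupffer, endothelial or platelet transcripts in the PH blood values was not tested.

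**Figure D3:**
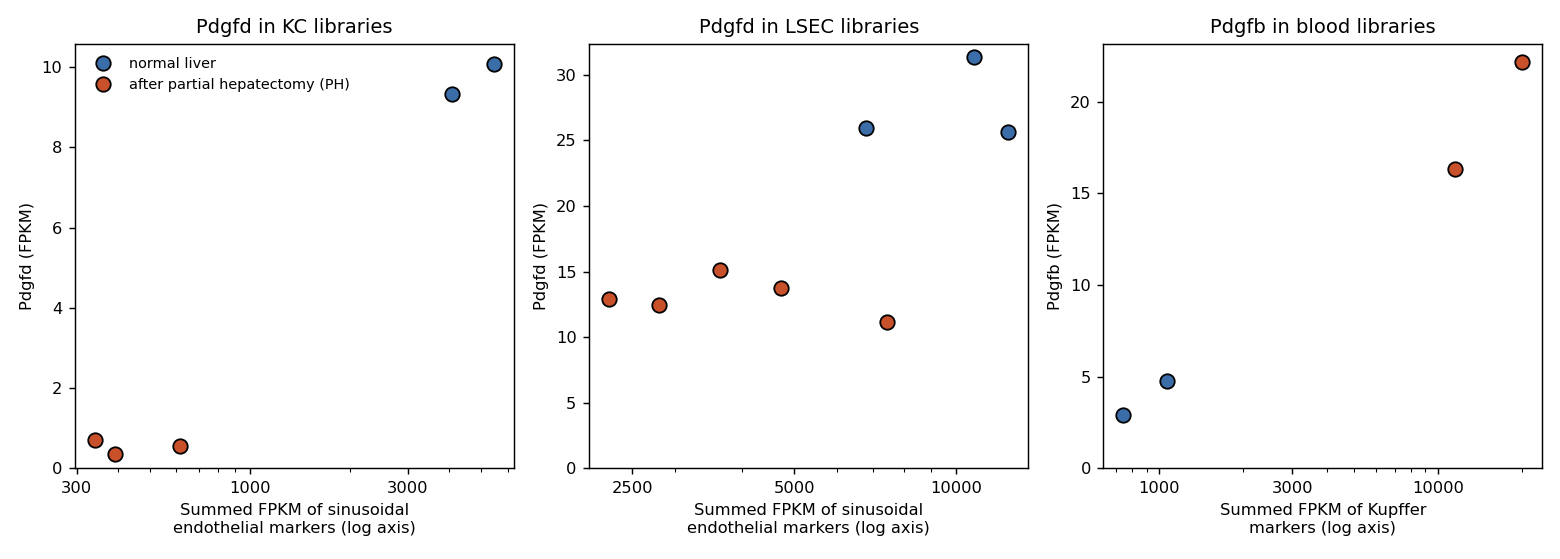
Level in FPKM of Pdgfd in KC and LSEC libraries against the summed FPKM of 8 sinusoidal endothelial markers, and of Pdgfb in blood libraries against that of 8 Kupffer markers (log axes), with normal liver in blue and PH in orange. In KC and blood the ligand and the markers separate the treatments in the same direction, and in LSEC the marker sums of the treatments overlap while Pdgfd does not.

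Hepatocytes held the least of most members. Pdgfb, Pdgfd and both receptors were at most 0.29 FPKM in all 8 libraries. Pdgfa read 3.13, 5.32, 4.82 and 2.69 FPKM in normal HC and 10.7, 4.16, 5.55 and 7.48 after PH, and Pdgfc 0.95, 1.19, 1.55 and 1.51 and then 1.70, 3.92, 1.97 and 1.46, both with overlap. Of the 2 genes tested limma called 0, beside 6.19% of all genes in the HC fit. An unadjusted p under 0.05 was found for 0 of the 2 and for 2157 of all 10029 genes. The fit of all groups also called 0 for HC, beside 7.22% of all genes.

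The Thy1 sort of normal liver held transcripts of both receptors and all 4 ligands. It also scored 7.24 for endothelial and 5.59 for duct markers, and a bulk sort cannot tell whether the same cells carry them all. Pdgfa read 36.9 and 32.6 FPKM in normal Thy1 cells and 19.3 and 12.5 after PH, without overlap (-1.11 ± 0.29, adjusted p = 0.188). Pdgfd read 27.7 and 59.2 FPKM and then 17.5 and 13.7 (-1.33 ± 0.41, adjusted p = 0.218), and Pdgfc 5.15 and 20.03 and then 5.13 and 2.54 (-1.29 ± 0.66, adjusted p = 0.365), again without overlap. Pdgfb read 18.8 and 16.1 FPKM and then 9.81 and 17.3. Limma called 0 of 6 in this comparison and 0.00747% of all genes. An unadjusted p under 0.05 was found for 2 of the 6 and for 2417 of all 13389 genes. In the fit of all groups, which called 11.4% of genes for Thy1, Pdgfc passed (adjusted p = 0.0171). Portal fibroblast markers summed to 2209 and 2694 FPKM in normal Thy1 cells and 1585 and 573 after PH. Duct markers, of the cells with most Pdgfc and Pdgfd, summed to 872 and 5178 FPKM in normal Thy1 cells, the library of 5178 being the one with more of both ligands, and to 1346 and 858 after PH. Mesothelial markers went from 3007 and 1866 to 1699 and 1062 and endothelial markers from 1354 and 1602 to 1750 and 3416, and the part of these cells in the differences was not tested.

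**Figure D4:**
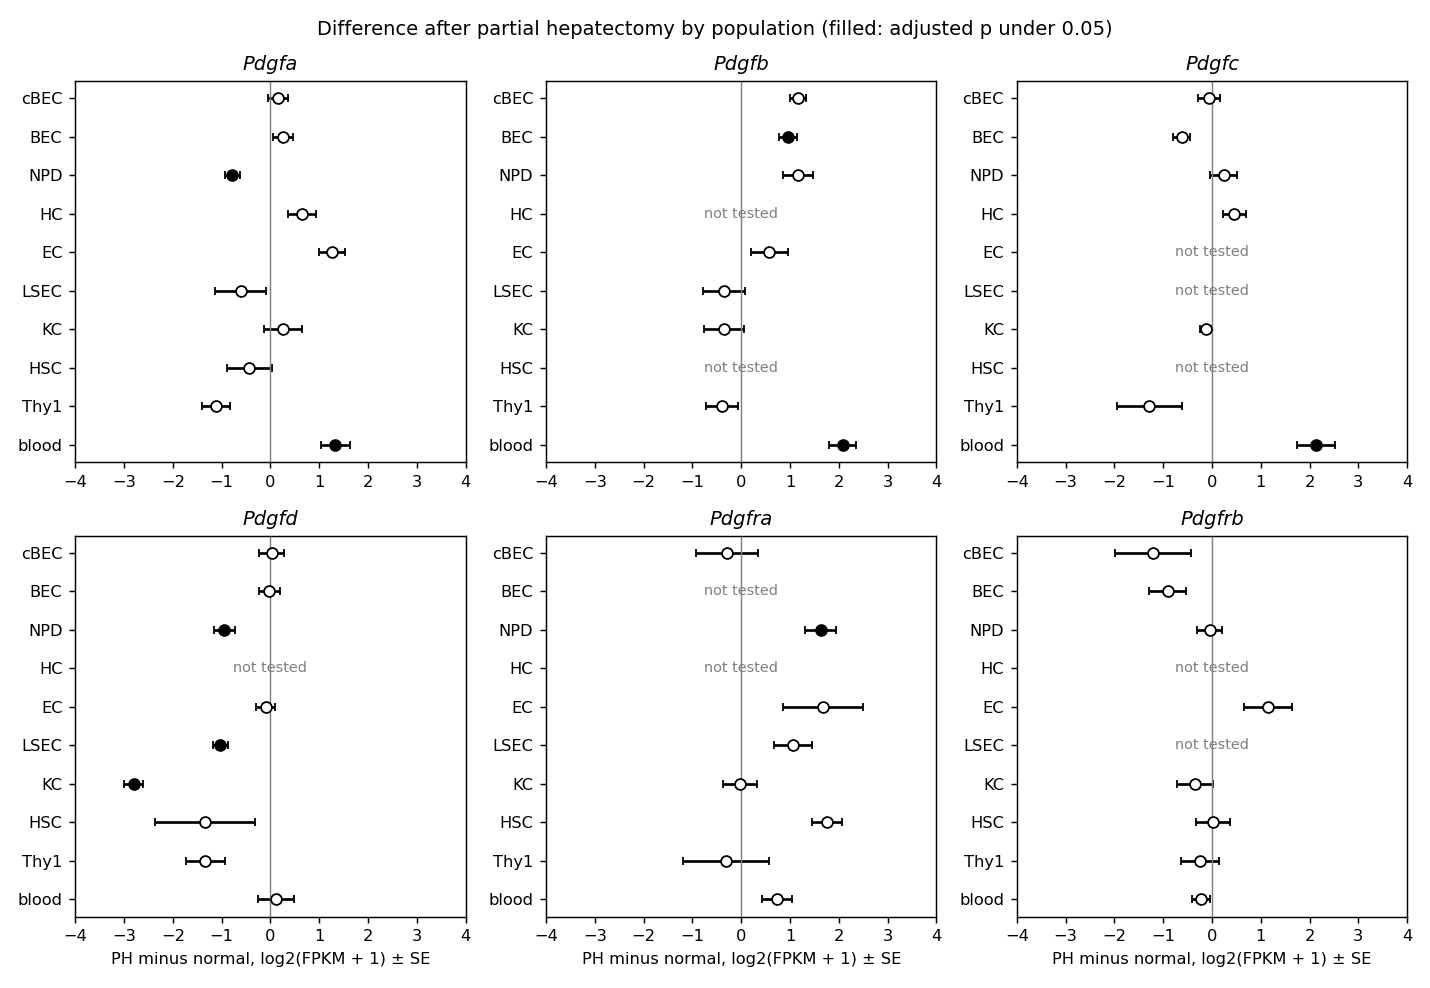
Difference between PH and normal liver in log2(FPKM + 1), with its standard error, for each PDGF gene and population, from limma fits of each population alone. Filled points have an adjusted p under 0.05. Of 60 pairs of gene and population 50 were tested and 9 are filled, 5 to the right of 0 and 4 to the left. The filled points are 3 in blood (64% of all genes called), 3 in NPD (15.2%) and 1 each in KC (36.8%), LSEC (8.46%) and BEC (1.81%). In HC 6.19% of all genes were called, and in cBEC, EC, HSC and Thy1 at most 0.0681%.

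Whether the response to PH differed among the 10 populations was tested with an F test in the fit of all groups, which called 47.8% of all genes and 4 of the 6 PDGF genes. All 4 ligands passed: Pdgfb (adjusted p = 0.000124), Pdgfc (0.000194), Pdgfd (0.00292) and Pdgfa (0.00679). For Pdgfra the adjusted p was 0.0506 and for Pdgfrb 0.211. That of Pdgfra passed when the rows of a symbol were averaged (0.0487) and when any 1 of 11 libraries was left out, with 0.00398 without library 1 of PH Thy1. Pdgfb had positive differences in cBEC, BEC, NPD, EC and blood and negative ones in LSEC, KC, HSC and Thy1. With a pseudocount of 0.1 in place of 1, only Pdgfb and Pdgfra were called. Between HSC and Thy1 cells the responses differed in 0 of 6 genes, beside 8.42% of all genes. Pdgfc and Pdgfra had an unadjusted p under 0.05, as had 3689 of all 16527 genes. Between HSC and LSEC the responses differed in 0 of 6, beside 6.26% of all genes. There 0 of 6 had an unadjusted p under 0.05, beside 3133 of all 16527 genes. For Pdgfra the response of HSC exceeded that of Thy1 cells by 2.07 ± 0.87 (adjusted p = 0.142), and by 3.43 (adjusted p = 0.00798) without library 1 of PH Thy1. For Pdgfc the difference of 1.24 ± 0.50 (adjusted p = 0.122) became 2.13 (0.00300) without library 1 of normal Thy1.

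Genes that act with PDGF were taken from 5 lists of 77 genes in all. In HSC limma called 0 genes of any list, with 3 of 8 activation and matrix-binding genes, 5 of 9 receptor partners, 0 of 22 adaptors and effectors, 2 of 15 attenuation genes and 5 of 16 early genes at an unadjusted p under 0.05, beside 995 of all 11729 genes. Its early genes, of a kind that PDGF induces in fibroblasts, had a median difference of 1.03 against 0.03 over all genes tested, and 16 of 16 were positive. Receptor partners had a median of -1.49 with 3 of 9 positive, among libraries in which endothelial markers were lower after PH (their part was not tested), and the activation list one of 1.13 with 6 of 8 positive. Of the attenuators, Spry4, Socs3 and Dusp6 had all PH libraries above the normal ones and Cbl all below, and limma called 0 of these. How often genes at large separate in this way with so few libraries was not counted. Spry4, an inhibitor of receptor signalling to Ras, averaged 11.4 ± 1.13 FPKM (n = 2) in normal HSC and 59.0 ± 16.7 (n = 3) after PH (adjusted p = 0.150). Socs3, a feedback inhibitor of cytokine receptors, averaged 21.8 ± 5.03 and 117 ± 20.9 (adjusted p = 0.124). Among partners, Itgb3, an integrin chain, averaged 130.4 ± 7.71 and 256 ± 97.3 FPKM (adjusted p = 0.531), Nrp1, a co-receptor, 101 ± 38.4 and 36.1 ± 14.5 (0.457), and Pdgfrl, a receptor-like gene, 15.7 ± 4.44 and 3.89 ± 0.445 (0.417). Dusp6, a phosphatase of ERK, averaged 99.1 ± 15.1 and 159 ± 59.4 FPKM (0.675), and Cbl, a ubiquitin ligase for activated receptors, 12.7 ± 0.75 and 8.49 ± 2.10 (0.762). Against Thy1 cells of normal liver, HSC were lower in 14 of 18 early genes and 8 of 12 activation genes and higher in 0 and 1, and after PH lower in 7 of each list and higher in 0 of both. Over all genes 4493 were lower and 1038 higher in normal liver, and 4121 lower and 1207 higher after PH, of 16527.

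Where these lists gave calls, the calls went both ways (values in parentheses are log2 differences, PH minus normal, all called by limma). In NPD, where 15.2% of all genes were called, 2 activation genes rose, 2 attenuators rose, led by Spry4 (1.44), and 3 early genes rose, led by the chemokine Ccl2 (3.65). In NPD 2 partners fell, led by Bsg (-1.68), and so did 1 adaptor, the kinase Fyn (-1.37). In LSEC, where 8.46% were called, 1 activation gene rose (Plaur, the urokinase receptor, 0.85) and 1 fell (Plau, the urokinase that can activate latent ligand, -1.70). There 1 partner rose (S1pr1, 1.05) and 1 fell (Nrp1, -1.01), 1 effector rose (Stat3, 0.60), 1 attenuator fell (Spred2, -1.17) and 3 early genes rose, led by Ccl2 (2.07). In BEC 1 early gene rose, Ccl2 (1.78), and no other listed gene was called there.

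In KC, where 36.8% of all genes were called, 2375 lower and 1975 higher, and endothelial and sinusoidal markers were lower as given above, the part of those cells in the list counts was not tested. Of 16 early genes tested 10 fell and 2 rose, led by Ccl7 (1.54), and Cxcl1 went from a mean of 51.7 ± 16.5 FPKM (n = 2) to being listed at 0 in the 3 PH libraries. Cxcl1 averaged 96.9 ± 23.1 FPKM (n = 4) in PH HC, and all 8 hepatocyte markers were also listed at 0 in every KC library. Whether such zeros are measured values is unknown. In KC 5 of 9 partners fell, led by Nrp2 (-3.37), 6 of 14 attenuators fell, led by Spry4 (-2.60), and 1 rose, the phosphatase Ptpn1 (1.03). Of 22 adaptors 7 fell, led by the kinase Yes1 (-2.93), and 2 rose, led by Pik3cb (0.84), and 2 of 6 activation genes fell, led by Thbs1 (-3.80). In blood, where 64% of all genes were called, 3109 higher and 5090 lower, 11 of 16 early genes rose, led by Ccl7 (5.18), and 4 of 8 partners, led by Lrp1 (5.09). There 9 of 15 attenuators rose, led by Spred1 (3.93), and 2 fell, led by Ptpn2 (-1.86), 10 of 22 adaptors rose, led by Grb2 (2.06), and 3 fell, led by Crkl (-1.08). In blood 5 of 8 activation genes rose, led by Plau (4.62), and 1 fell, St14 (-2.82), a protease that activates the Pdgfd product. In HC 2 early genes rose, led by Cxcl1 (2.23), and Ier2 (-1.18), Spry4 (-1.06) and Stat5b (-1.19) fell, while cBEC, EC and Thy1 had 0 calls in the 5 lists. Numbers of unadjusted p under 0.05 over the lists in these 3 populations ran from 0 to 3 in cBEC, 2 to 5 in EC and 3 to 8 in Thy1. Over all genes tested they were 1346 of 13225 in cBEC, 1297 of 12064 in EC and 2417 of 13389 in Thy1.

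The genes whose means over the 20 groups most resembled each member were found among 11723 symbols by Pearson correlation of log2(FPKM + 1), as a description of groups that share populations. For Pdgfra these were Kcne4, a potassium channel subunit (r = 0.986), Olfml3, an olfactomedin-like secreted protein (0.963), and Pdgfrb itself (0.960). Kcne4 averaged 18.3 FPKM in normal HSC and 55.7 in PH HSC. For Pdgfrb they were Susd2 (0.982), the phosphodiesterase Pde1a (0.979) and the protocadherin Pcdh18 (0.974). For Pdgfd they were Vsig10 (0.977), Zfp704 (0.973) and the transcription factor Sox4 (0.962), and for Pdgfc the adhesion molecule Cadm1 (0.972), Vill (0.964) and the homeobox gene Tgif1 (0.945). For Pdgfa they included Wdr35, which encodes a protein of the primary cilium (0.962), and Irak1bp1 (0.946). Pdgfb had the least close neighbours, Abcc4 (0.932), Socs4 (0.931) and Aggf1 (0.908). Among the members, Pdgfa and Pdgfc correlated at 0.733 over the 20 groups, Pdgfb and Pdgfd at 0.696, and the receptors with Pdgfb at -0.321 (Pdgfra) and -0.367 (Pdgfrb).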

How the data were processed

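The deposited table holds FPKM per transcript and library; per the file headers each replicate has its own column, and the submitters' processing notes name CASAVA 1.8.2, Bowtie 1.0.0 and the build mm9 with no role for each. The counting tool is not given in the sources used here. All 55 sample columns matched a title. Where a symbol had several rows, the one of highest mean FPKM over all libraries was used. The depth is unknown, so no counting interval is given, and values of 0 are called listed at 0. All 8 hepatocyte markers were listed at 0 in every BEC, KC and normal blood library, and whether such zeros are measured values is unknown.

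PH was compared with normal liver within each population on log2(FPKM + 1) values with limma 3.58.1 (R 4.3.3), two-sided, its variance moderation set to trend and robust. Differences on this scale understate changes of low genes. Genes needed at least 1 FPKM in as many libraries as the smaller group holds. Populations and responses were compared in a fit of all 20 groups (at least 1 FPKM in 2 libraries). P-values were Benjamini-Hochberg adjusted over all genes tested, with a threshold of 0.05. The fit within a population was run on simulated data for HC, LSEC, NPD, HSC, KC and blood, with an outcome not reported here. The fit of all groups was not tested in this way. Replicate numbers were not used as pairs.

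The members, gene lists and tests were chosen with earlier results of these data known. All 6 members are named. From the lists, the called genes with the largest rise and fall per list and population are named, and, for HSC, partners and attenuators whose libraries or roles are described. The 3 genes most like each member needed a group mean of at least 10 FPKM. Some genes that these rules select are not reported here. Alternatives were a pseudocount of 0.1, no filter, upper-quartile and quantile scaling, the mean over a symbol's rows, a fit of all groups or of the compared groups, a replicate block and leaving out each library. Python 3.11.15 with matplotlib 3.10.9 drew the figures.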

Additional observations from a re-analysis of the deposited data

Results flagged for a closer look

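Among 30 sets of member values in groups of 4 or 5 libraries, 1 library stood far from the others by Dixon's criterion, where chance gives about 1.5. This was Pdgfrb in library 5 of PH LSEC, at 2.54 FPKM, with the other 4 libraries between 0.0400 and 0.561. The same library had the highest Pdgfra of its group, 4.08 FPKM.

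The response to PH differed among populations by the F test for 4 genes, the ligands Pdgfb (adjusted p = 0.000124), Pdgfc (0.000194), Pdgfd (0.00292) and Pdgfa (0.00679), by limma with Benjamini-Hochberg adjustment over 16527 genes, of which 47.8% were called.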

How the results depend on the processing

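The read depth is unknown and most groups hold 2 to 4 libraries, which limits every comparison. In a fit of all 20 groups the number of members called after PH was 0 in BEC, NPD and LSEC, 2 in HSC and 1 in Thy1 cells, against 1, 3, 1, 0 and 0 in fits of each population. Over all genes the fit of all groups called 2.11%, 11.7%, 7.12%, 11.9% and 11.4% in these populations. The fits of each population called 1.81%, 15.2%, 8.46%, 0.00853% and 0.00747%. Without a filter the number of members called was 0 in BEC (53 of 17712 genes called) and NPD (648 of 17932). After quantile normalization it was 0 in BEC (59 of 12851). With a pseudocount of 0.1 the F test called 2 members instead of 4, with 6580 of 16527 genes called. The responses of HSC against Thy1 and of HSC against LSEC differed in 1 each instead of 0 (814 and 922 of 16527 genes called). Pdgfd then lost its call in normal liver for HSC against Thy1 (adjusted p = 0.141) and LSEC (0.286), KC against blood (0.215) and cBEC against NPD (0.282). After PH its call was lost for EC against LSEC (0.318) and cBEC against NPD (0.0871), and so was its PH call in NPD (0.0508). Pdgfrb was then called for EC against LSEC after PH (0.0287). Same-numbered libraries did not deviate together in every pair, so the numbers were not taken to pair samples. With a replicate block the count was 0 in LSEC (3 of all 11501 genes called) and 2 in KC (6549 of 11835). Elsewhere it was within 1.5 times of its main value. The cause of these changes was not tested.

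Leaving out library 1 of normal cBEC gave a count of 1 in cBEC, where 99 of 12824 genes were called. In BEC the count was 0 without library 1 or 4 of normal BEC (134 of 12750 and 170 of 12688 genes called). In KC it was 2 without library 3 of PH KC (6890 of 11791). Leaving out any library of NPD or blood leaves a group of 1, and no count is given for these. The count for the response of EC against LSEC was 0 to 1. The mean over a symbol's rows, upper-quartile scaling and, for pairs of populations, a fit of the compared groups alone moved no count by more than 1.5 times.

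Signs turned only for differences that were not called. With a pseudocount of 0.1 these were Pdgfra in KC (0.14), Pdgfc between EC and LSEC of normal liver (0.33), and the HSC against LSEC responses of Pdgfc (-0.056) and Pdgfra (-0.60). With upper-quartile scaling they were Pdgfrb in HSC (-0.016) and the HSC against Thy1 response of Pdgfd (0.054). After quantile normalization they were Pdgfra in cBEC (0.012), Pdgfd in BEC (0.038), Pdgfra (0.31) and Pdgfrb (0.0030) in KC, Pdgfrb in HSC (-0.25), Pdgfra between KC and blood of normal liver (0.30), Pdgfc between HSC and LSEC after PH (0.070), the HSC against Thy1 responses of Pdgfd (0.11) and Pdgfrb (-0.076), and the HSC against LSEC response of Pdgfa (-0.079). With the replicate block they were Pdgfc in cBEC (0.059), Pdgfd in BEC (0.15), Pdgfrb in HSC (-0.24) and the HSC against LSEC response of Pdgfrb (0.27).

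Leaving out 1 library turned the sign of the PH difference of Pdgfa in cBEC (-0.17 to 0.48), BEC (-0.024 to 0.54), KC (-0.27 to 0.80) and HSC (-1.02 to 0.16), of Pdgfb in LSEC (-0.74 to 0.037), of Pdgfc in cBEC (-0.32 to 0.19) and NPD (-0.11 to 0.59), and of Pdgfd in cBEC (-0.21 to 0.26), BEC (-0.20 to 0.16), EC (-0.19 to 0.025) and blood (-0.25 to 0.49). It also did so for Pdgfra in KC (-0.56 to 0.52) and Thy1 (-1.68 to 1.06) and for Pdgfrb in NPD (-0.21 to 0.11), KC (-0.93 to 0.23), HSC (-0.24 to 0.29) and Thy1 (-0.78 to 0.29). Between populations of normal liver it did so for Pdgfa (-0.22 to 0.94) and Pdgfc (-0.25 to 0.26) in EC against LSEC, Pdgfa (-0.094 to 0.018) and Pdgfrb (-0.69 to 0.32) in cBEC against NPD and Pdgfra (-0.55 to 0.53) in KC against blood. Among responses it did so for Pdgfa (-0.41 to 0.87), Pdgfc (-0.18 to 0.34), Pdgfd (-0.96 to 0.80) and Pdgfrb (-0.43 to 0.18) in HSC against LSEC, Pdgfd (-0.65 to 1.11) and Pdgfrb (-0.26 to 0.80) in HSC against Thy1 and Pdgfra (-0.25 to 1.21) in EC against LSEC.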
